A study of Mus musculus with 6 samples.

Results

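Sorted mesenchymal stem and progenitor cells (MSPCs) from the marrow of mice were profiled, and 42 of the 1285 genes in the authors' deposited table were near silent in control cells and detected in cells without Snai2. They were chosen by a control group mean below 1 and a Snai2-/- group mean at or above 2 on the authors' normalized scale, after setting aside predicted and Rik-named genes, several large symbol families (solute carriers, zinc fingers, collagens, chemokines, interleukins, CD antigens and ATPases) and Matn1. The study profiled RNA from 3 control and 3 Snai2-/- libraries of littermates at 8 weeks of age. Each library came from 2000 cells sorted as CD45-, Ter119-, CD31- and Nes-GFP+, so that both groups carried the green reporter driven by nestin sequences. The labels call the first group control, without naming its Snai2 alleles, and the table calls it wildtype; no treatment is named for either. Neither the strain nor whether animals were pooled is given in the sources used here.

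Snai2 encodes Slug, a zinc-finger transcription factor of the Snail family that binds E-box motifs with the core CAGGTG and mostly represses transcription, best known for silencing epithelial genes when cells become mesenchymal. MSPCs are the rare stromal cells of marrow that surround vessels, give rise to bone, cartilage and fat cells and supply factors that keep blood stem cells in place. A gene that such cells hardly transcribe is often one whose usual home is another cell type, for example a neuron, a chondrocyte or a leukocyte, and a few transcripts of it can come from a small number of cells. In bulk RNA, fewer cells that express a gene and less RNA per cell cannot be told apart.

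Each gene has 1 mean per group, the ratio of the means, an unadjusted p, and an FDR (false discovery rate, the p adjusted over all genes tested). Values of single libraries were not analysed here, so no error or sample depth stands beside a mean, and whether the libraries of the 2 groups overlap for any gene is not known. The table lists only genes with an unadjusted p below 0.05, 1285 of 16718 genes tested (7.69%), and 631 of those listed (49.1%) had the higher mean in Snai2-/- cells. Because the members were chosen on these means, their height in Snai2-/- cells is a description and no test was made of it. The mean of Snai2 itself was 636 in control and 9.20 in knockout cells in the authors' deposited table, in the direction of the labels.

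The promoters of 4 members are shown first, because they hold the E-box letters that Snail family proteins are known to bind and lie wholly before the annotated gene. They were taken from RefSeq promoter windows on GRCm38.p6 and are the 250 bases before the transcription start, 5′ to 3′ on the gene's strand, with CAGGTG or its reverse complement CACCTG in capitals. Grik3 lies at chr4:125490446-125490695 on the plus strand, Nipsnap1 at chr11:4873701-4873950 on the plus strand, Scube1 at chr15:83725040-83725289 on the minus strand and Kif21a at chr15:91049952-91050201 on the minus strand.
Grik3: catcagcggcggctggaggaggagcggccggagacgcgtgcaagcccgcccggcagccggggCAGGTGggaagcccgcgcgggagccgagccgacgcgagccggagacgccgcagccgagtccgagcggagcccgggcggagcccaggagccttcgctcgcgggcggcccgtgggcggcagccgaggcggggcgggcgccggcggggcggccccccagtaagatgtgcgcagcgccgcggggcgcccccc
Nipsnap1: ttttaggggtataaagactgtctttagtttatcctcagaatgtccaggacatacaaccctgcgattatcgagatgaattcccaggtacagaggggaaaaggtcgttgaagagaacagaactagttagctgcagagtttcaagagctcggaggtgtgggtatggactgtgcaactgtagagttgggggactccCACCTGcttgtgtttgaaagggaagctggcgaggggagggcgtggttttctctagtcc
Scube1: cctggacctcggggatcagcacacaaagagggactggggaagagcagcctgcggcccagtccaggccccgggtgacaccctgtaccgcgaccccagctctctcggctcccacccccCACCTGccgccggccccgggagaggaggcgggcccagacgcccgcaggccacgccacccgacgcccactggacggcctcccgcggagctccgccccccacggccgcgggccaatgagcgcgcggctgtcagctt
Kif21a: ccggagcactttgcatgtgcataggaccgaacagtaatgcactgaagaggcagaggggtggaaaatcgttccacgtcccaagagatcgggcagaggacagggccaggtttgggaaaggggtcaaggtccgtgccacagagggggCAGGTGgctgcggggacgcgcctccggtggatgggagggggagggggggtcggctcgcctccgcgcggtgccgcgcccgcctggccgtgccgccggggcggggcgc

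Of the 42 genes, 28 matched a RefSeq promoter window by symbol, with 29 windows of 300 bases (250 before to 50 after the start). Both strands were searched for CAGGTG, and every such match is also a match to the wider E-box CANNTG. The windows of 11 of the 28 genes (39.3%) held CAGGTG or CACCTG. The same letters were in the windows of 22.6% of all 27025 genes with a window, 22.1% of 17492 protein-coding genes and 30.5% of the 469 listed genes with a higher mean in Snai2-/- cells. They were also in the windows of 8 of 19 genes (42.1%) with the opposite pattern, detected in control and near silent without Snai2. Within the 250 bases before the start the count was 8 of 28 (28.6%), against 19.4% of all genes with a window, 26.2% of the listed genes with a higher mean in Snai2-/- cells and again 8 of 19 (42.1%) of those with the opposite pattern.

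Galnt3 was the 1 member with 3 matches, 170 and 57 bases before the start and 39 bases after it. Nipsnap1 held its match 58 bases before the start, Adgrv1 and Prr15 95 bases before, Kif21a 106, Scube1 134, Ddah1 170 and Grik3 188. In Tarsl2, Tmem117 and Thbs4 the match began 25, 40 and 43 bases after the start. The wider CANNTG was in the windows of 20 of the 28 genes (71.4%), against 75.0% of all genes with a window, and CACGTG, an E-box known from helix-loop-helix factors such as Myc, in 2 of 28 (7.14%) against 8.09%. A match is a description of letters and not a site of binding, and its part in any difference was not tested. The windows of the members were rich in G and C, with a median of 62.7% against 52.7% for all windows, 56.3% for those of protein-coding genes and 60.3% for those of all listed genes. The most CpG-dense window among the members was that of Zswim5, with 52 CpG pairs, followed by Grik3 with 50. The median was 17 CpG pairs over the members' windows, 18 over those of all listed genes, 19 over those of the listed genes with a higher mean in Snai2-/- cells, 13 over those of protein-coding genes and 7 over all windows.

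**Figure D1:**
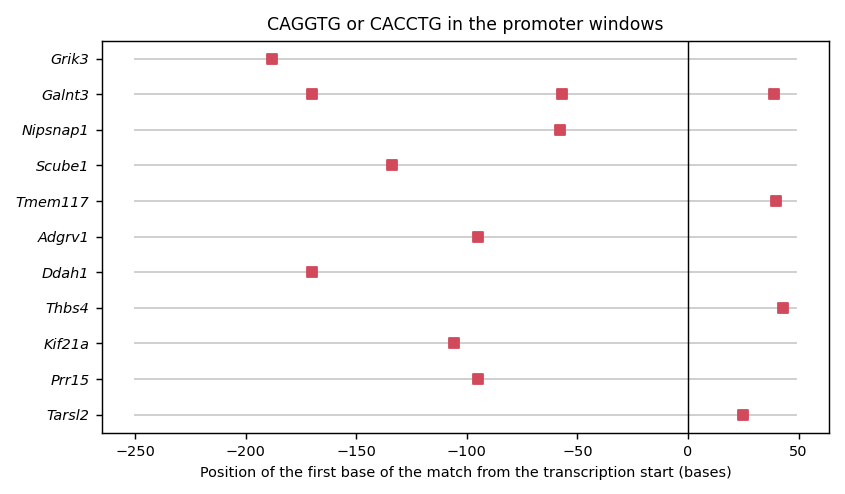
Position of the first base of each CAGGTG or CACCTG match (squares) along the 300-base promoter windows (grey lines) of the 11 members that hold one, in bases from the transcription start (vertical line), ordered by the authors' p. Galnt3 has 3 matches and the other 10 genes have 1 each, 7 of them before the start.

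Among the 42 genes the control means ran from 0.0623 to 0.994 with a median of 0.667, and the Snai2-/- means from 2.02 to 14.9 with a median of 3.11, in the authors' deposited table. Only 2 members, Sphkap and Scube1, had a Snai2-/- mean of 10 or more, and 20 were below 3 there. Each group mean stands for 3 libraries: for Grik3 the means correspond to normalized totals of 0.313 over the control and 20.6 over the Snai2-/- libraries. The ratios ran from 2.41 to 65.7 with a median of 5.54, a median log2 ratio of 2.47, where all listed genes had a median of -0.36 and those with a higher mean in Snai2-/- cells one of 1.19 in the authors' deposited table. A ratio over 10 was seen for 10 members, against 45 of all 1285 listed genes (3.5%), a share that the choice of members fixes in large part. The authors' scale is not stated to be per length of transcript, so ranges and limits describe the means as deposited and no order of expression between genes is read from them.

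**Figure D2:**
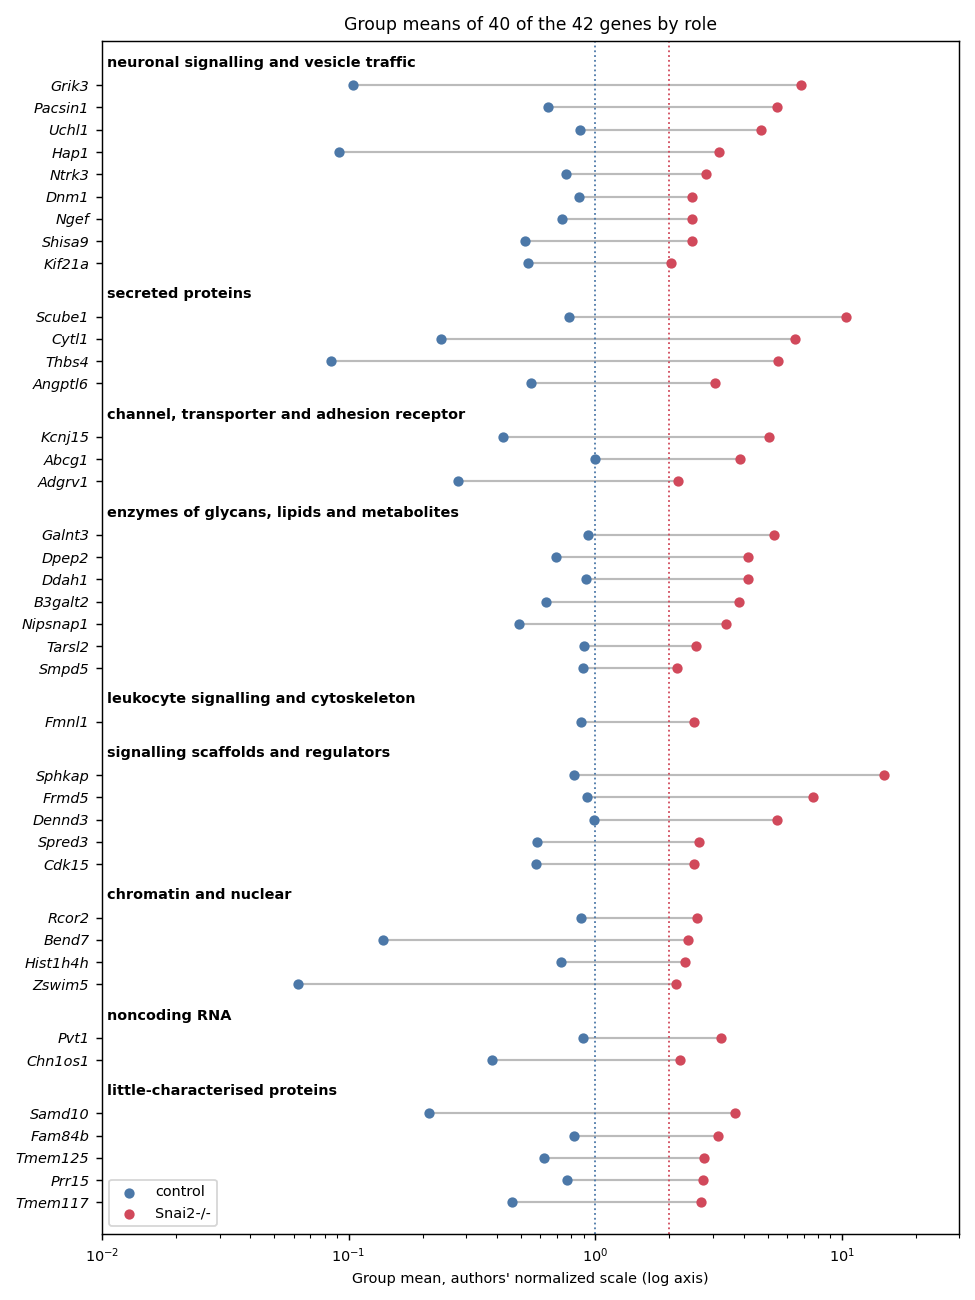
Control (blue) and Snai2-/- (red) group means of 40 of the 42 genes on the authors' normalized scale, log axis, grouped by role; grey lines join the means of a gene and dotted lines mark the limits of 1 and 2 that chose the genes. The lines are longest, which on this axis means the widest ratios, for Grik3 (65.7) and Thbs4 (64.8), and shortest for Smpd5 (2.41).

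An FDR below 0.05 was reached by 0 of the 42, and by 0% of all listed genes, in the authors' deposited table. Their FDR values ran from 0.263 to 0.649 and their unadjusted p from 0.000395 to 0.0483. An unadjusted p below 0.01 stood beside 19 members (45.2%), against 28.4% of all listed genes and 32.2% of those with a higher mean in Snai2-/- cells; the choice of members used the same contrast, so nothing is read from that share. Size of ratio and p did not go together throughout: of the 10 members with a ratio over 10, 5 had a p below 0.01 and 5 had a p from 0.0152 to 0.0458 in the authors' deposited table. Grik3 and Zswim5 combined a ratio of 65.7 and 34.0 with p of 0.000395 and 0.000661, whereas Thbs4 and Hap1, with ratios of 64.8 and 34.8, had p of 0.0152 and 0.0294 there.

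**Figure D3:**
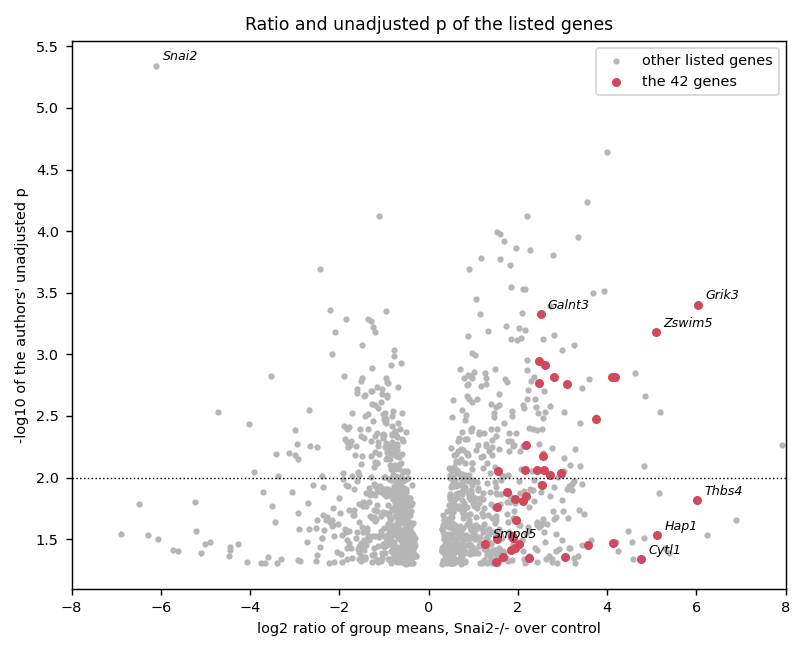
log2 ratio of the group means, Snai2-/- over control (horizontal axis), against -log10 of the authors' unadjusted p (vertical axis) for the listed genes, the 42 genes in red; the dotted line marks p of 0.01, and 7 genes with a group mean of 0.0001 are not drawn. Of the 42, 19 lie above the line, with Grik3 and Galnt3 highest, while Thbs4, Hap1 and Cytl1 lie far right below it.

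The largest group by role, assigned by hand from general knowledge, was 9 genes known mainly from neurons. Grik3, a subunit of kainate-type glutamate receptors (chromosome 4, 125490700 to 125714173, plus strand), showed means of 0.104 in control and 6.85 without Snai2 in the authors' deposited table, with the smallest p of all 42. Shisa9, an auxiliary protein of AMPA-type glutamate receptors, had means of 0.521 and 2.46 in the authors' deposited table. Hap1, which binds huntingtin and links cargo to microtubule motors, had 0.0914 in control and 3.18 without Snai2 in the authors' deposited table. The ratios of Grik3 and Hap1 were over 10 and that of Shisa9 was below 5.

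Dnm1 and Pacsin1 of the same group encode partner proteins. Dnm1, the dynamin that pinches off synaptic vesicles, had means of 0.856 in control and 2.48 without Snai2 in the authors' deposited table. Pacsin1, a membrane-bending partner of dynamin, had 0.642 and 5.48 in the authors' deposited table, the ratio being 8.55 at a p of 0.00175. The ratio of Dnm1, 2.89 at a p of 0.0313 in the authors' deposited table, was the smallest of the group. Uchl1, a ubiquitin hydrolase abundant in neurons, had 0.868 and 4.69 in the authors' deposited table. Kif21a, a kinesin motor of axons, had 0.532 and 2.02 there. The Snai2-/- mean of Kif21a was just past the limit of 2. Ntrk3, the receptor of neurotrophin-3, had 0.762 and 2.82 in the authors' deposited table. Ngef, an exchange factor downstream of Eph receptors, had 0.734 and 2.47 there. Of these 9 genes 3 (Grik3, Pacsin1 and Uchl1) had a p below 0.01 there. The share was 28.4% for all listed genes and 32.2% for those with a higher mean in Snai2-/- cells, so nothing is read from that count. Of 40 neuronal and synaptic genes on a separate list, among them Tubb3, Snap25, Syt1, Map2 and Dcx, 0 were listed. The same held for 0 of 16 Schwann and glial genes, against 7.69% of all genes tested. The neuronal list leaves out the 9 genes above, Uchl1 among them, so it does not cover every gene known from neurons. How many of these genes were tested is not known, so each either was not tested or missed the table's limit on p.

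Among secreted proteins, Thbs4 had the widest ratio after that of Grik3. Scube1, a secreted and cell-surface protein with CUB and EGF-like domains (chromosome 15, 83604999 to 83725021, minus strand), had means of 0.780 in control and 10.4 without Snai2 in the authors' deposited table, the ratio being 13.3 at a p of 0.00335. Thbs4, a thrombospondin of tendon and muscle matrix (chromosome 13, 92751590 to 92794818, minus strand), had 0.0849 and 5.50 in the authors' deposited table. Cytl1, a small secreted protein made by chondrocytes, had 0.237 and 6.44 in the authors' deposited table, but a p of 0.0458, near the limit of the table. Angptl6, an angiopoietin-like factor, had 0.550 and 3.06 at a p of 0.00169 in the authors' deposited table. Scube1 and Angptl6 had a p below 0.01, and Thbs4 and Cytl1 one above it. Of all listed genes 28.4% had a p below 0.01, so nothing is read from that count.

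Beside Thbs4 and Cytl1, most listed genes on the cartilage and bone lists also had higher means in Snai2-/- cells. Of 25 chondrocyte genes 4 were listed (16%, against 7.69% of all genes tested), all 4 higher, with summed means of 145.9 in control and 707.0 without Snai2 in the authors' deposited table. Matn1, among these 4, met both limits of the rule and was set aside by name, so the limits fix its direction. Of 25 osteoblast and osteocyte genes 11 were listed (44.0%), 10 of them higher, where 49.1% of all listed genes were higher. An unadjusted p below 0.01 stood beside 2 of these 11 and 1 of the 4 chondrocyte genes, against 28.4% of all listed genes. The median log2 ratio was 2.80 for the listed chondrocyte genes and 2.66 for the osteoblast and osteocyte genes, against -0.36 for all listed genes. Both lists were chosen with earlier results of these data known, and how many of their genes were tested is not known. Of 35 skeletal and cardiac muscle genes 3 were listed (8.57%, against 7.69% of all genes tested), all 3 lower, with a median log2 ratio of -3.44. That share is near the one for all genes tested. Chrna1, a muscle gene not on that list, was higher, with means of 0.0355 in control and 1.29 without Snai2. No direction for muscle genes is therefore read from the 3. Des, the intermediate filament of muscle, had means of 43.9 in control and 17.8 without Snai2, Tnnt1, a troponin, 8.85 and 0.816, and Ryr1, a calcium release channel, 0.439 and 0.00828 in the authors' deposited table. Des is also on the list of smooth muscle and pericyte genes, where 2 of 13 were listed (15.4%), both lower. The other, Mylk, had means of 231.1 in control and 167.9 without Snai2 in the authors' deposited table. The part of cartilage, bone or muscle cells in the values of Thbs4 and Cytl1 was not tested. Comp, the thrombospondin of cartilage, had means of 36.8 and 158.4, and Thbs3 22.7 and 34.8, in the authors' deposited table, so that all 3 listed members of that family had higher means without Snai2 and Thbs4 was the one with a control mean below 1.

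Enzymes of glycans, lipids and metabolites, with the mitochondrial protein Nipsnap1 placed among them by hand, gave 7 members with moderate ratios, from 2.41 to 6.97. The widest was that of Nipsnap1, and without it the range ended at 6.09, for B3galt2. Galnt3, which starts O-linked glycans and is known for protecting the phosphate hormone FGF23 from cleavage (chromosome 2, 66082766 to 66124994, minus strand), had means of 0.937 in control and 5.33 without Snai2 in the authors' deposited table, and the second smallest p of the 42, 0.000471. B3galt2, a galactosyltransferase, had 0.631 and 3.84 at a p of 0.00123 in the authors' deposited table. Nipsnap1, a mitochondrial protein, had 0.489 and 3.41 at a p of 0.00154 there. Galnt3, B3galt2 and Nipsnap1 had the smallest p of the 7. Dpep2, a membrane dipeptidase of leukotriene metabolism, had 0.692 and 4.16 in the authors' deposited table. Ddah1, which degrades the nitric oxide synthase inhibitor dimethylarginine, had 0.917 and 4.16 there. Tarsl2, a threonyl-tRNA synthetase-like enzyme, had 0.897 and 2.57 in the authors' deposited table. Smpd5, a sphingomyelinase, had 0.890 and 2.14 there. Smpd5 had the smallest ratio of all 42, 2.41, while Smpd3, the sphingomyelinase of bone mineralization, had 15.0 in control and 102.2 without Snai2 in the authors' deposited table.

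At the membrane, Kcnj15, an inward-rectifier potassium channel, had means of 0.424 in control and 5.05 without Snai2 in the authors' deposited table. Abcg1, which exports cholesterol to lipoproteins, had 0.994, just below the limit, and 3.86 in the authors' deposited table. Kcnj15 had the wider ratio of the pair, 11.9 against 3.88. Adgrv1, the very large adhesion receptor of the inner ear and retina, had 0.277 and 2.16 in the authors' deposited table. Its p of 0.00918 was the only one of these 3 below 0.01, where 28.4% of all listed genes were. Of 49 voltage-gated and ligand-gated channel genes on a separate list 4 were listed (8.16%, against 7.69% of all genes tested), 2 higher (Kcnma1 and Kcnk1) and 2 lower (P2rx5 and P2rx7). P2rx5 had means of 0.289 in control and 0.0001, a floor, without Snai2 in the authors' deposited table. The list leaves out the glutamate receptor genes Grik3 and Grik5, both higher without Snai2, so no balance of directions is read from it.

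Among signalling scaffolds and regulators, Sphkap had the widest ratio. This anchoring protein of protein kinase A, known from heart and brain (chromosome 1, 83254139 to 83408200, minus strand), had means of 0.821 in control and 14.9 without Snai2 in the authors' deposited table, the ratio being 18.1 at a p of 0.00153. Frmd5, a FERM-domain protein of cell junctions, had 0.923 and 7.65, but a p of 0.0444, in the authors' deposited table. Dennd3, an exchange factor for the GTPase Rab12, had 0.990 and 5.45 at a p of 0.00112 in the authors' deposited table. Of these 3 genes Sphkap and Dennd3 had a p below 0.01. The share was 28.4% for all listed genes and 32.2% for those with a higher mean in Snai2-/- cells, so nothing is read from such counts. Spred3, an inhibitor of Ras to ERK signalling, had 0.579 and 2.64 at a p of 0.00545, also below 0.01, in the authors' deposited table. The cyclin-dependent kinase gene Cdk15 had 0.577 and 2.51 at a p of 0.0156 there. The relatives of Dennd3 and Spred3 went the other way: Dennd2a, Dennd4b, Dennd5a and Dennd5b, all 4 other DENN-domain genes listed, had ratios of 0.530, 0.599, 0.695 and 0.626, and Spred2 one of 0.579, in the authors' deposited table.

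Fmnl1 is known mainly from blood cells, which the sort selects against. This formin, which builds actin filaments in leukocytes, had 0.878 in control and 2.52 without Snai2 in the authors' deposited table. Neutrophil and monocyte genes had higher means in the same cells: of 20 on the list 7 were listed (Ngp, S100a9, Camp, Chil3, Ltf, Lcn2 and Ly6g), all 7 higher, with summed means of 186.4 in control and 820.1 without Snai2 in the authors' deposited table. These 7 are 35.0% of the list, against 7.69% of all genes tested, and 49.1% of all listed genes were higher. Their median log2 ratio was 2.43 against -0.36 for all listed genes, and 0 of the 7 had a p below 0.01, against 28.4% of all listed genes. Of 15 general leukocyte genes 2 were listed, both higher: Ptpn6 with means of 2.69 and 7.70, and Cd48 with 1.21 and 3.64, in the authors' deposited table. The part of such cells in the value of Fmnl1 was not tested, and how many genes of these lists were tested is not known. Ptprc, which encodes the sorted-out antigen CD45, was not listed, and no level is known for it here.

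The chromatin and nuclear members all had Snai2-/- means below 3. Zswim5, a SWIM-type zinc-finger protein (chromosome 4, 116877376 to 116989264, plus strand), had means of 0.0623 in control and 2.12 without Snai2 in the authors' deposited table. Bend7, a BEN-domain protein, had 0.138 and 2.38 at a p of 0.00153 in the authors' deposited table. Both of these had control means far below the limit of 1. Rcor2, a corepressor of the CoREST family that works with the histone demethylase LSD1, had 0.878 and 2.59 in the authors' deposited table. Hist1h4h, a histone H4 gene, had 0.730 and 2.32 in the authors' deposited table, a value that is uncertain because the 13 annotated histone H4 genes are near copies and can share reads. Bend5, from the family of Bend7, had 1.72 and 9.53 in the authors' deposited table, above the limit on the control mean.

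Noncoding RNA gave 2 members. Pvt1, a long noncoding RNA beside the Myc gene (chromosome 15, 62037986 to 62378096, plus strand), had means of 0.890 in control and 3.23 without Snai2 in the authors' deposited table. Chn1os1, an antisense RNA (chromosome 2, 73658270 to 73660263, plus strand), had 0.383 and 2.21 in the authors' deposited table. The library kits named in the labels do not mark the strand, so reads from Chn1os1 and from Chn1, on the other strand, cannot be told apart where their exons overlap. Chn1, a regulator of Rac signalling, had 17.0 in control and 57.1 without Snai2 in the authors' deposited table. Its ratio was 3.36, beside 5.78 for Chn1os1. Tarsl2 was the other member whose exons overlap those of a listed gene, Tm2d3, with means of 43.9 and 67.2 in the authors' deposited table. In all, the exons of 13 members overlap those of another annotated gene, on the opposite strand for 12.

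The last 5 members encode proteins of little-known function. Samd10 had means of 0.213 in control and 3.70 without Snai2 in the authors' deposited table, the ratio being 17.4 at a p of 0.0341. Fam84b had 0.823 and 3.15 in the authors' deposited table. The ratio of Samd10 was the widest of these 5 and that of Prr15 the smallest. Tmem117, a membrane protein, had 0.459 and 2.70 in the authors' deposited table. Tmem125, also a membrane protein, had 0.618 and 2.77 there. Prr15 had 0.765 and 2.74 in the authors' deposited table. Tmem117 and Tmem125, with p of 0.00674 and 0.00871, were the members of this group below 0.01, where 28.4% of all listed genes were.

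For 29 members a family was defined by gene symbol, and these families hold 170 further annotated genes. Of these relatives 20 were listed (11.8%), where 7.69% of all genes tested were, and how many of the 170 were tested is not known. The higher mean was in Snai2-/- cells for 12 of the 20 (60.0%, against 49.1% of all listed genes) and in control cells for 8. In 16 of the 29 families the member was the only gene listed, among them the inward-rectifier channels (15 annotated genes) and the Trk receptors (3). Of the 12 higher relatives 6 had a control mean below 5. Grik5, another kainate receptor subunit, had 0.309 in control and 1.59 without Snai2 in the authors' deposited table. Frmd3, a relative of Frmd5, had 2.10 and 9.40 there. Shisa3, from the family of Shisa9, had 3.25 in control and 79.5 without Snai2 in the authors' deposited table. Shisa5, of the same family, went the other way, with 279.1 in control and 218.0 without Snai2. Lower without Snai2 were also Dpep1, a relative of Dpep2 (1305.8 and 835.8), and Adgrl2, a relative of Adgrv1 (83.7 and 51.3). The rest of the 8 lower genes are the relatives of Dennd3 and Spred3 named above.

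Not 1 of the 42 was on any of 25 lists of markers and pathways (557 symbols), of which 59 genes were listed. The lists were chosen with earlier results of these data known. They leave out members of similar roles, such as Grik3, Uchl1 and Cytl1, so nothing is read from the lack of overlap. The lists for epithelial cells and keratinocytes (36 genes), germ cells and testis (32), kidney (14), osteoclasts (13) and mast cells, basophils and eosinophils (16) had 0 listed genes each, against 7.69% of all genes tested. How many genes of these lists were tested is not known. Each either was not tested or missed the table's limit on p, so nothing is read from their absence. On the list of Snail family and epithelial-mesenchymal transition genes 3 of 24 were listed, Snai2 lower and Fn1 and Tjp1 higher, and the epithelial genes Cdh1, Epcam, Ocln and Esrp1 were not. Of 15 MSPC markers, Ebf1 was the 1 listed, whose means in the authors' deposited table were 362.5 and 210.3, and the levels of Lepr, Cxcl12, Kitl and Nes are not known here, so the label of the cells could not be checked on them.

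In position, 41 of the 42 symbols matched 1 gene in GENCODE M21 on GRCm38, and 39 of these were protein-coding. They lay on 15 chromosomes, with 7 members each on chromosomes 2 and 15, from which 96 and 60 genes were listed. Pvt1 and Fam84b on chromosome 15 were the closest pair, 1.18 Mb apart, and 0 pairs lay within 1 Mb. Shisa9 lay 2.72 Mb from Snai2 on chromosome 16, and Kcnj15, the other member there, 80.6 Mb away. The genes of the members had a median span of 43.2 kb against 28.1 kb for all listed genes and 23.0 kb for those with the opposite pattern, and a median of 4886 exonic bases against 4498 and 3790.5.

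The limits that chose the members pass through a continuous range. Just inside the control limit stood Abcg1 (0.994), Dennd3 (0.990) and Galnt3 (0.937), and just outside Dusp14, Nbeal2 and Sema3a, with control means of 1.02, 1.06 and 1.08 and Snai2-/- means of 9.42, 3.37 and 8.12 in the authors' deposited table. Just inside the limit on the Snai2-/- mean stood Kif21a (2.02), Zswim5 (2.12) and Smpd5 (2.14), and just outside Orm3, Notum and Grik5, at 1.72, 1.64 and 1.59 in the authors' deposited table. Of the 135 listed genes with a control mean below 1, 100 had a higher mean in Snai2-/- cells, and 56 of them reached 2 there, 14 of which were set aside by symbol. Of the 116 listed genes with a Snai2-/- mean below 1, 97 had a lower mean in Snai2-/- cells, and 26 of them reached 2 in control, of which 24 remained with the same symbols set aside. A low mean in 1 group fixes much of either split, so nothing is read from them.

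**Figure D4:**
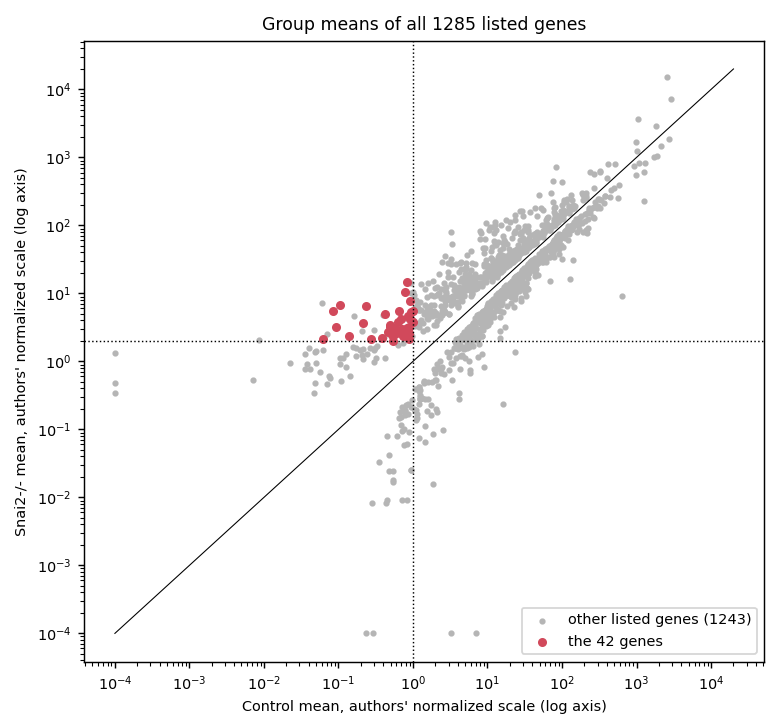
Control mean (horizontal axis) against Snai2-/- mean (vertical axis) of all 1285 listed genes on the authors' normalized scale, both axes log; the line marks equal means, dotted lines the limits of 1 and 2, and red points the 42 genes. The red points fill the upper left corner together with 14 grey points that were set aside by symbol.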

How the data were processed

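Per the labels' protocols, cDNA was made with the SMART-Seq v4 kit and libraries with Nextera XT, from column-purified RNA of sorted MSPCs. Trim Galore, HTSeq, edgeR 3.12.0 and mm10 are named, per the submitters' processing notes, without what each did. Aligner and statistical model: not given in the sources used here. Per the file headers, the authors' deposited table holds for each gene a p-value, its step-up FDR, the ratio of both group means, a signed fold change (treated as a score, being negative for lower genes) and the 2 least-squares means. These deposited means are a normalized signal and not counts, as 0 of the totals lie within 0.0001 of a whole number. Each total is 3 times the summed means within a relative 1e-06.

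The table's mutant and wildtype were taken as Snai2-/- and control. That libraries came from separate animals is not stated, so the authors' p may measure technical spread in part. No model was fitted, since the table has no library values. The number of genes tested, 16718, was recovered from FDR, rank and p, a step checked on simulated tables. Members and lists were chosen with earlier results of these data known. Of the 42 members, 40 are named with both means; the other two are counted but not reported by name here. Other genes are named from a list, a symbol family, an exon overlap or a limit of the rule. Role groups and families were set by hand once the members were known. Coordinates are 1-based from GENCODE M21 (GRCm38, which mm10 denotes), and promoter windows are RefSeq's on GRCm38.p6. Alternatives were other limits, pseudocounts and motifs. Python 3.11.15, numpy 2.4.6, pandas 2.3.3 and matplotlib 3.10.9 were used.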

Additional observations from a re-analysis of the deposited data

How the results depend on the processing

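The 42 members became 13 with a control mean below 0.5, 82 with one below 2 and 22 with a Snai2-/- mean of at least 3; they became 59 with a Snai2-/- mean of at least 1 and 56 with no symbols set aside. The count at FDR 0.05 was 0, as it was at 0.1 and 0.2, while by the authors' deposited p-values 19 members were below an unadjusted 0.01, 26 below 0.02 and 11 below 0.005. Of all listed genes 28.4% were below 0.01. The median of the authors' p was 0.0206 for all listed genes and 0.0179 for those with a higher mean in Snai2-/- cells. Nothing is read from these counts of members. The median log2 ratio of 2.47 was 2.29 with a pseudocount of 0.1 and 1.37 with a pseudocount of 1, as follows from means near or below those pseudocounts. The count of members with CAGGTG in the promoter window, 11, was 20 for CANNTG, 2 for CACGTG and, in a search chosen after seeing the data, 8 in the bases before the start only. No paired analysis was possible because the table gives 1 mean per group and no library values, so a replicate block, left-out libraries, other filters and DESeq2 were not run. With 1 mean per group, whether 1 library decides a value was not tested for any gene named. Depth per library is unknown, which limits most the ratios whose control mean is near 0.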

Other observations

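Of the 14 genes that met both limits but were set aside by symbol, several carry known functions. Matn1, a cartilage matrix protein, had means of 0.0605 in control and 7.13 without Snai2 in the authors' deposited table. Slc6a15, a transporter of neutral amino acids, had 0.00858 and 2.06 in the authors' deposited table. Cd28, a costimulatory receptor of T cells, had 0.206 and 2.79, and the chemokine gene Ccl6 0.412 and 2.32, in the authors' deposited table. The uncharacterised 1810041L15Rik had 0.946 in control and 14.4 without Snai2, at a p of 0.000307 in the authors' deposited table.

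Between a Snai2-/- mean of 1 and 2 there were 17 further genes with a control mean below 1, chosen here after their values were seen. Chrna1, the acetylcholine receptor subunit of muscle, had means of 0.0355 in control and 1.29 without Snai2 in the authors' deposited table. Notum, a secreted inhibitor of Wnt ligands, had 0.156 and 1.64 at a p of 0.00363, and Sstr2, a somatostatin receptor, 0.117 and 1.11, in the authors' deposited table. Tll2, a metalloproteinase related to tolloid, is listed at 0.0001 in control, a floor of unstated origin, and at 1.31 without Snai2 in the authors' deposited table. None of these genes had an FDR below 0.05 there, as none of the 1285 listed genes did, and 365 of the 1285 had an unadjusted p below 0.01.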
